A study of Danio rerio with 10 samples.

Results

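The genes described here are chad, which encodes chondroadherin, and 9 further genes of the cartilage extracellular matrix or its chondrocytes: acana, matn1, matn4, epyc, cnmd, snorc, ucmab, hapln1a and sox9a. They were listed by symbol with the genotype difference of chad known from earlier results of these data, so the differences between genotypes below are a description. Symbols were matched to the Ensembl identifiers of the count tables without regard to case, and a symbol without its final a or b also counted. All 10 of 10 symbols were found, at 13 of the 32520 gene identifiers in the tables. The symbol HAPLN1 stands at 2 identifiers beside hapln1a, and SOX9 at 2 identifiers, and the tables do not say which zebrafish copy (a or b) each one is, so these are given with their identifiers. The gene listed as UCMA stands for ucmab in the same way, and symbols are written in capitals below where the tables do so (MATN1, MATN4). A filter on low counts kept 12 of the 13 identifiers, and the excluded one, HAPLN1 ENSDARG00000102395, is described at the end of the member values.

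Cartilage is a matrix made and kept by chondrocytes. Fibrils of type II collagen, with types IX and XI, carry tension, and aggrecan, a large proteoglycan laden with chondroitin sulfate, binds to hyaluronan through link protein and holds water. Chondroadherin is a leucine-rich repeat protein of this matrix that binds type II collagen and the integrins of chondrocytes. In zebrafish larvae the jaw, the gill arches, the base of the skull and the pectoral fins are still largely cartilage.

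The libraries came from whole larvae of the line Tg(fli1:EGFP), in which a fli1 promoter drives a green fluorescent protein in vessels, and were collected at 120 h post fertilization (hpf) without a drug or diet treatment. The aldh2.1-/- larvae carry a frameshift deletion made with CRISPR/Cas9 in aldh2.1, one of the aldehyde dehydrogenase genes, and the aldh2.1+/+ larvae are wild type at that locus. Each library holds a pooled clutch of 50 larvae, with 5 libraries per genotype numbered 1, 2, 3, 5 and 6, and the labels do not say whether these clutches had different parents. The mutants are a single line, so the deletion and the history of that line cannot be told apart. RNA of whole larvae was sequenced. In such bulk RNA a change in the number of chondrocytes and a change in RNA per chondrocyte cannot be told apart. The libraries held 19792930 to 20703518 estimated counts. In transcripts scaled by length to a fixed total per library (TPM), the label check separated the genotypes: ALDH2 ENSDARG00000089924 was at 2.76 ± 0.98 TPM in aldh2.1-/- and 6.51 ± 0.45 TPM in aldh2.1+/+ larvae, and aldh2.2 at 1.15 ± 0.13 TPM and 8.68 ± 0.83 TPM (mean ± SD, n = 5 each), with no overlap of libraries in either. Reads of such gene copies may be divided between them by the quantification, and the symbol aldh2.1 itself is not given to an identifier. All 14 marker genes of a list for larval tissues such as liver, eye, pancreas, skin and vessels had counts in every library.

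Chad was higher in aldh2.1-/- larvae than in aldh2.1+/+ larvae, with no overlap between genotypes. In counts scaled by library size and TMM factors (CPM), chad was at 32.8, 27.4, 31.4, 26.4 and 33.0 CPM in aldh2.1-/- replicates 1, 2, 3, 5 and 6. In aldh2.1+/+ replicates 1, 2, 3, 5 and 6 it was at 18.1, 22.5, 24.5, 21.8 and 21.4 CPM. The lowest mutant library, replicate 5, was therefore above the highest wild-type library, replicate 3. The means were 30.2 ± 3.09 CPM and 21.6 ± 2.32 CPM (SD, n = 5 each), a log2 fold change of 0.48 with an SE of 0.10, or 1.39-fold. On the TPM scale, which divides by transcript length, the means were 13.6 ± 2.35 and 9.37 ± 1.00 TPM. The genotypes did not overlap there either, but only narrowly: aldh2.1-/- replicate 5 was at 10.6 TPM and aldh2.1+/+ replicate 2 at 10.5 TPM. Leaving out each library in turn gave log2 fold changes of 0.42, without aldh2.1+/+ replicate 1, to 0.53, without aldh2.1+/+ replicate 3. Chad was chosen on this contrast, so this range is a description. The raw counts of chad were whole numbers in all 10 libraries within a tolerance of 0.02, as they are where the quantification has no reads to divide among genes. Counting alone would give a CV of 4.35%, and edgeR estimated a biological CV of 11.4% for chad, where the trend for genes at that level was 13.9%.

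**Figure D1:**
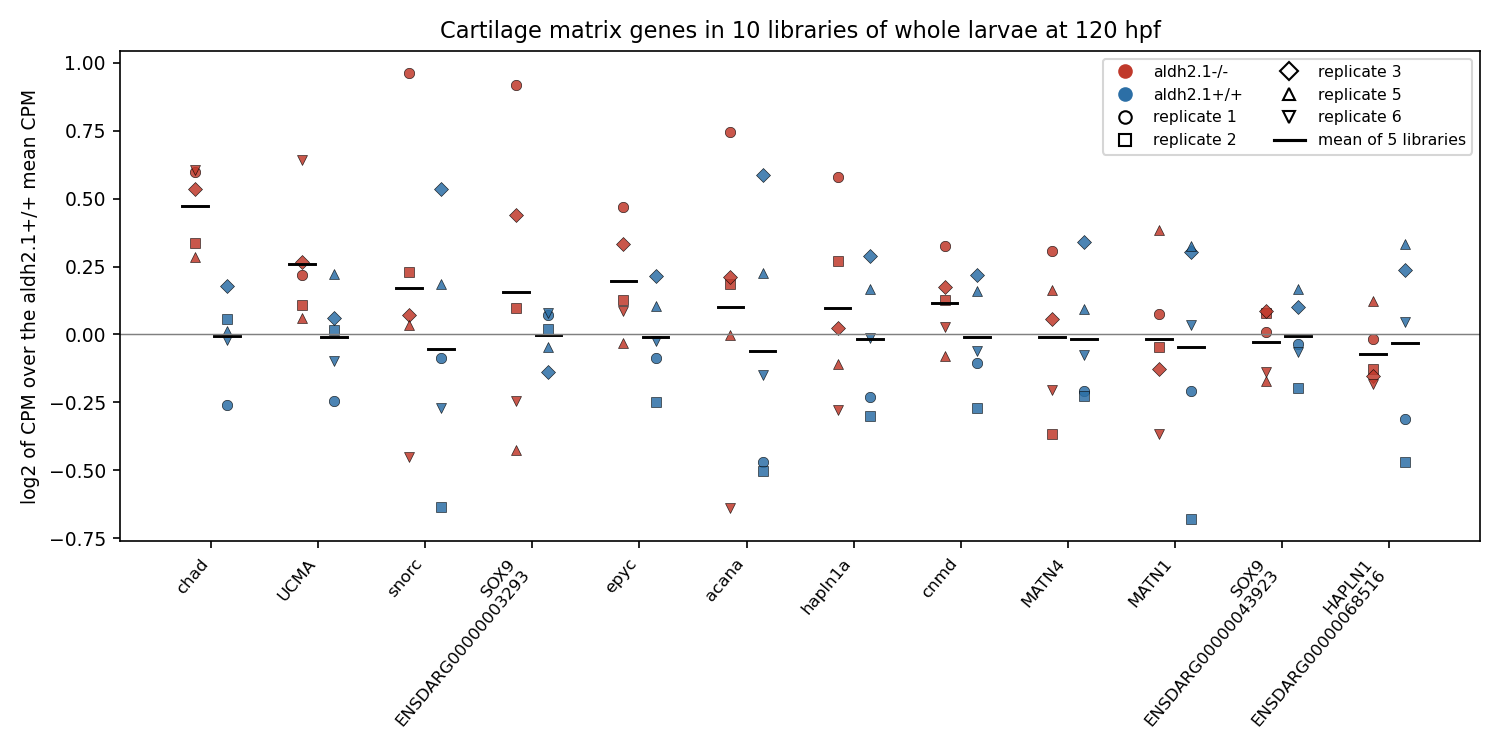
Log2 of the CPM in each library over the mean CPM of the aldh2.1+/+ libraries (vertical axis) for the 12 tested members (horizontal axis), with red points for aldh2.1-/-, blue points for aldh2.1+/+, a symbol per replicate number and a bar for the mean of the 5 log2 values of each genotype. The chad points, from 26.4 to 33.0 CPM in aldh2.1-/- and from 18.1 to 24.5 CPM in aldh2.1+/+, are apart, and the points of the other members overlap.

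Across all tested genes the background was low. With edgeR's quasi-likelihood test and Benjamini-Hochberg adjustment at 0.05, 2 of 21532 genes were called (0.00929%), and 0 of the 12 tested members were. At an unadjusted p under 0.05 there were 2 of the 12 members, chad and UCMA, both higher in aldh2.1-/-, against 1086 genes (5.04%; 2.83% higher and 2.21% lower). UCMA was not under that threshold with the replicate number as a block, nor without aldh2.1-/- replicate 3 or 6 or without aldh2.1+/+ replicate 1, 2 or 6. DESeq2 called 1 member, chad, and 21 of the 21532 tested genes. With limma on log2 TPM, 0 members and 2 of the 21532 genes were called. Of the 12 members, 1 (chad) was higher in every aldh2.1-/- library than in any aldh2.1+/+ library, against 0.348% of the tested genes, and 0 of 12 were lower in every one, against 0.376%. The log2 fold change was above 0 in 10 of 12 members and in 52.1% of the tested genes. Since chad was chosen on this contrast, its counts here describe the choice and support nothing.

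**Figure D2:**
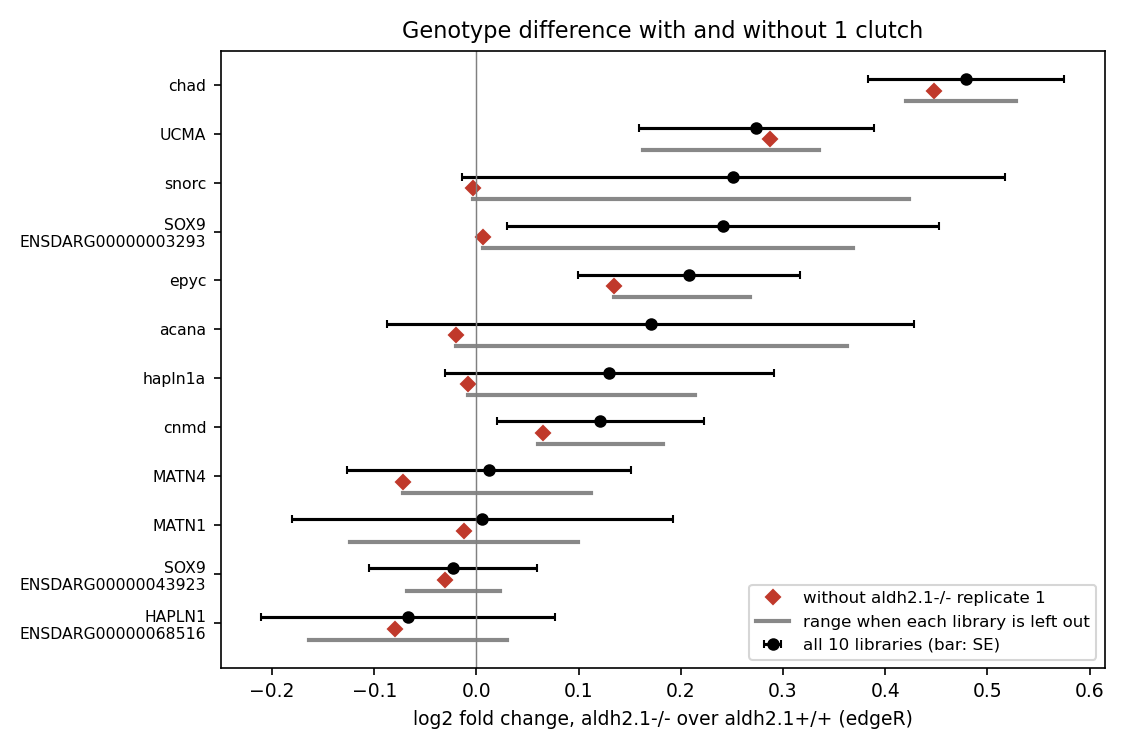
Log2 fold change (aldh2.1-/- over aldh2.1+/+) of each of the 12 tested members, with bars of 1 SE from edgeR (black), the same value without aldh2.1-/- replicate 1 (red), and the range over leaving out each library in turn (gray line). Chad stands at 0.48 and at 0.45 without that library, while acana, snorc, hapln1a, cnmd and SOX9 ENSDARG00000003293 drop to 0.07 or below.

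UCMA came next in size. This gene encodes a small vitamin K-dependent protein, rich in gamma-carboxyglutamate, that chondrocytes secrete into the matrix. It was at 46.6, 43.1, 48.2, 41.7 and 62.5 CPM in aldh2.1-/- replicates 1, 2, 3, 5 and 6, and at 33.8, 40.5, 41.8, 46.7 and 37.4 CPM in the same-numbered aldh2.1+/+ libraries. The genotypes overlapped, because aldh2.1+/+ replicate 5 was above 3 of the mutant libraries and aldh2.1+/+ replicate 3 was just above aldh2.1-/- replicate 5. Replicate 6 of the mutants was far above the rest. The log2 fold change was 0.27 with an SE of 0.12, and it was 0.16 without aldh2.1-/- replicate 6, the lowest value, and 0.34 without aldh2.1+/+ replicate 5, the highest, when libraries were left out in turn. The estimated counts of UCMA were whole in 0 of 10 libraries, as where reads are divided among genes that share sequence. The same held for epyc, SOX9 ENSDARG00000043923 and both HAPLN1 identifiers (0 of 10 each). Counts of hapln1a were whole in 5 libraries and those of cnmd in 9.

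The proteoglycans of the matrix and the proteins that anchor them made up the next group. Epyc encodes epiphycan, a small leucine-rich proteoglycan, and it was at 250.3, 197.6, 227.7, 177.1 and 192.1 CPM in aldh2.1-/- and at 170.2, 152.3, 209.8, 194.4 and 177.7 CPM in aldh2.1+/+ larvae. The ranges overlapped, with the mutant replicate 1 the highest of the 10 libraries and the wild-type replicate 2 the lowest, and the log2 fold change was 0.21 with an SE of 0.11. Acana encodes aggrecan, the proteoglycan that gives cartilage its resistance to compression, and it was at 13.6, 9.20, 9.36, 8.08 and 5.20 CPM in aldh2.1-/- and at 5.84, 5.71, 12.1, 9.47 and 7.29 CPM in aldh2.1+/+ larvae. Here the lowest of all 10 libraries was a mutant library and the ranges overlapped widely, with a log2 fold change of 0.17 and an SE of 0.26. Hapln1a encodes a link protein that fastens aggrecan to hyaluronan, and it was at 136.8, 110.3, 93.2, 84.9 and 75.5 CPM in aldh2.1-/- and at 77.9, 74.3, 111.8, 102.8 and 90.8 CPM in aldh2.1+/+ larvae. Its log2 fold change was 0.13 with an SE of 0.16, and again aldh2.1-/- replicate 1 was the highest of all. Snorc, a small proteoglycan of the chondrocyte surface known from the mouse, was at 7.68, 4.63, 4.15, 4.04 and 2.88 CPM in aldh2.1-/- and at 3.71, 2.54, 5.71, 4.49 and 3.26 CPM in aldh2.1+/+ larvae. Its ranges overlapped, with the same mutant library the highest, and the means were 4.67 ± 1.80 CPM and 3.94 ± 1.22 CPM (SD, n = 5), with a log2 fold change of 0.25 and an SE of 0.27.

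The matrilins join collagen fibrils to other matrix proteins, and neither member differed in its mean between genotypes by more than its SE. MATN4 had a log2 fold change of 0.01 with an SE of 0.14, over libraries from 113.6 to 181.4 CPM in aldh2.1-/- and from 125.3 to 185.2 CPM in aldh2.1+/+. MATN1 had a log2 fold change of 0.01 with an SE of 0.19, over libraries from 131.1 to 220.6 CPM and from 105.5 to 211.7 CPM. Cnmd encodes chondromodulin, a glycoprotein of cartilage that holds back vessel growth, and it was at 118.4, 103.1, 106.6, 89.4 and 96.2 CPM in aldh2.1-/- and at 87.9, 78.4, 110.0, 105.7 and 90.5 CPM in aldh2.1+/+ larvae. The genotypes overlapped, and the means were 102.7 ± 11.0 CPM against 94.5 ± 13.1 CPM (SD, n = 5), a log2 fold change of 0.12 with an SE of 0.10. HAPLN1 ENSDARG00000068516 was at 17.9 ± 1.61 CPM in aldh2.1-/- and 18.8 ± 4.36 CPM in aldh2.1+/+ larvae, with a log2 fold change of -0.07 and an SE of 0.14. For that identifier the ratio of counts to TPM varied 1.64-fold among libraries, so the 2 scales of its level are not the same measure.

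The transcription factor SOX9 is needed for chondrocyte differentiation and drives many matrix genes. SOX9 ENSDARG00000043923 was at 78.5 ± 6.53 CPM in aldh2.1-/- and 79.8 ± 7.93 CPM in aldh2.1+/+ larvae, a log2 fold change of -0.02 with an SE of 0.08. SOX9 ENSDARG00000003293 was at 50.9, 28.8, 36.5, 20.04 and 22.7 CPM in aldh2.1-/- and at 28.4, 27.3, 24.5, 26.1 and 28.5 CPM in aldh2.1+/+ larvae. The wild-type libraries lay close together, with a CV of 6.20%, and the mutant libraries spread to both sides of them, with a CV of 39.1%. The log2 fold change was 0.24 with an SE of 0.21. HAPLN1 ENSDARG00000102395, excluded by the filter, was at 0.346 ± 0.291 CPM and 0.271 ± 0.196 CPM, means of 7.15 and 5.41 counts, and no comparison was made.

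Beyond chad and UCMA, most of the small positive differences of the members depended on aldh2.1-/- replicate 1. That library was the highest of 10 for 6 of 12 members (50%), against 22.0% of all tested genes. It stood apart in both directions: it was the lowest library for 22.9% of all tested genes and for 0 of 12 members, and its summed level of the larval tissue markers, 6697 TPM, was the lowest of the 10. Without it the median log2 fold change of the 12 members went from 0.15 to -0.01, that of the 11 members other than chad went from 0.13 to -0.01, and 5 of 12 rather than 10 of 12 were above 0. Single members moved alike: hapln1a went from 0.13 to -0.01, acana from 0.17 to -0.02, snorc from 0.25 to -0.00, SOX9 ENSDARG00000003293 from 0.24 to 0.01, cnmd from 0.12 to 0.07 and epyc from 0.21 to 0.14. Chad went from 0.48 to 0.45 and UCMA from 0.27 to 0.29. The low end of the members was held by aldh2.1+/+ replicate 2, which was the lowest library for 7 of 12 members and for 8.45% of all tested genes. The median of the 12 members was 0.07 without that library and 0.09 without aldh2.1+/+ replicate 1. What set these clutches apart was not tested.

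Levels differed widely between members. Per transcript length, in aldh2.1+/+ larvae, epyc was the most abundant member at 113.4 TPM, followed by MATN1 at 93.1 TPM, UCMA at 77.0 TPM and cnmd at 68.3 TPM, and the ranges of each of these neighbors overlapped. MATN4 at 47.3 TPM and SOX9 ENSDARG00000043923 at 25.9 TPM each stood apart from their neighbors, and hapln1a (20.2 TPM) and SOX9 ENSDARG00000003293 (18.3 TPM) overlapped. Chad, at 9.37 TPM, lay apart from the genes above and below it. Snorc (5.45 TPM) and HAPLN1 ENSDARG00000068516 (5.35 TPM) overlapped, acana was at 1.45 TPM and HAPLN1 ENSDARG00000102395 at 0.341 TPM. Chad was thus a minor member by level, and its CPM was 2.93% to 4.10% of the summed CPM of the other tested members in aldh2.1-/- libraries and 2.25% to 3.24% in aldh2.1+/+ libraries. On this relative scale the genotypes overlapped, because aldh2.1+/+ replicate 2, where most members were at their lowest, had the highest wild-type share.

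The members also varied together between clutches of 1 genotype. Deviations of log2 CPM from the genotype mean were correlated over the 10 libraries. All genes of a library share its depth, scaling and larvae, so the values are a description. The median Pearson r over the 66 pairs of the 12 members was 0.57, and 58 pairs were positive. For each pair, r was also taken without the 2 libraries farthest from the median of its first named gene. The closest pairs were epyc and cnmd (r = 0.96, Spearman rho = 0.95, and r = 0.93 without 2 libraries) and acana and hapln1a (r = 0.94, rho = 0.95, and 0.93). MATN1 with HAPLN1 ENSDARG00000068516 followed (r = 0.94, rho = 0.94, and 0.94). Chad was less tied to the others: over its 11 pairs the median r was 0.32, from -0.09 with MATN1 to 0.72 with UCMA, against 0.58 over the 55 pairs without chad. The pair chad and UCMA had rho = 0.81, and r was 0.51 without aldh2.1-/- replicate 5 and aldh2.1+/+ replicate 1, the 2 libraries farthest from the median, and 0.63 to 0.79 with each library left out in turn. Epyc had r = 0.55 with chad, cnmd 0.48, MATN4 0.43, acana 0.33 and hapln1a 0.32.

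**Figure D3:**
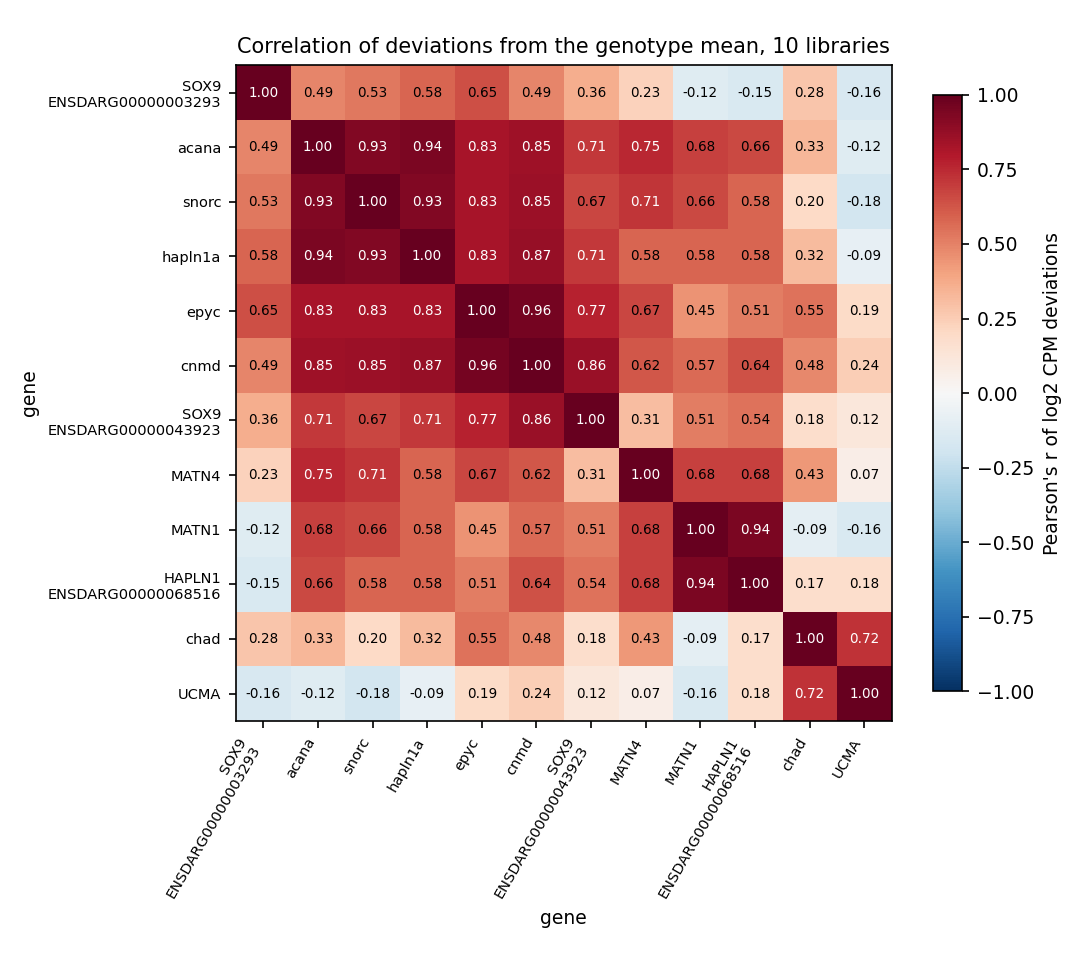
Pearson r between the members' deviations from their genotype mean (log2 CPM, 10 libraries), as a matrix of member pairs. The pairs among acana, hapln1a, snorc, epyc and cnmd lie from 0.83 to 0.96, while the pairs of chad lie from -0.09 to 0.72. The pairs of UCMA with members other than chad lie from -0.18 to 0.24.

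Among 19808 genes with a mean of at least 1 CPM, the genes whose deviations were most like those of chad were KLHL21 (r = 0.96), pik3ap1 (0.94), CTSB (0.92) and DHRS3 (0.92), followed by xkr5b, C1QTNF12, si:dkey-73n8.3, il17rc, ENSDARG00000110151 and mylk2 (0.89 to 0.90). None of these 10 was a member or a gene of the cartilage lists used here, and UCMA ranked 213. Genes of the lists described below were closer to chad than UCMA (0.72). They included COL1A1 ENSDARG00000035809 of the bone list (r = 0.84) and CILP of the other matrix list (0.75). The median r with chad was 0.32 for the bone list, as for the members. It was 0.20 for the 4 cartilage lists together, 0.29 for tendon and -0.03 for inner ear. The median r over all 19808 genes was -0.02. The 10 named genes are the top of 19808 values from 10 libraries, and how high r would reach by chance was not tested.

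The other genes of cartilage were followed through 4 lists written from general knowledge: collagens, other matrix genes, chondrocyte regulators and enzymes of chondroitin sulfate synthesis. Of their 82 genes, 70 passed the low-count filter, 0 were called by edgeR after adjustment, and 5 had an unadjusted p under 0.05 (4 higher and 1 lower in aldh2.1-/-), where all tested genes gave 5.04% (2.83% higher and 2.21% lower). DESeq2 also called 0 of them. The median log2 fold change of the 70 genes was 0.10, and of all tested genes 0.01. Without aldh2.1-/- replicate 1, the highest library for 40 of the 70 (57.1%), the median was 0.01, and it was 0.05 without aldh2.1+/+ replicate 1 and also without aldh2.1+/+ replicate 2. Among the 12 collagens, 11 were above 0, against 52.1% of all tested genes, with a median of 0.13, which went to -0.02 without that library. Col9a1b, a chain of type IX collagen, was at 429.6 ± 38.1 CPM against 351.3 ± 35.2 CPM (SD, n = 5), a log2 fold change of 0.29 with an SE of 0.09. Its genotypes overlapped, and unlike the median its log2 fold change stayed at 0.30 without aldh2.1-/- replicate 1. COL2A1 ENSDARG00000069093, for the main fibril collagen of cartilage, was at 309.6 ± 47.0 TPM against 271.2 ± 36.0 TPM, with a log2 fold change of 0.13 and an SE of 0.12. A further identifier with that symbol, ENSDARG00000011407, is in the list, and its values are not given here.

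The 15 tested genes of the other matrix list had a median of 0.23, or 0.07 without aldh2.1-/- replicate 1. MATN3 ENSDARG00000069245, a matrilin, was at 174.2 ± 46.7 CPM against 129.4 ± 9.14 CPM, with a log2 fold change of 0.43 and an SE of 0.17. Its mutant libraries, from 99.6 to 227.4 CPM, lay to both sides of the wild-type range of 117.9 to 140.9 CPM. Without aldh2.1-/- replicate 1 its log2 fold change was 0.31. MATN3 ENSDARG00000069265 had a log2 fold change of 0.56 with an SE of 0.27, and 0.38 without that library, and its genotypes also overlapped. The 17 regulators had a median of 0.09, and the 2 with an unadjusted p under 0.05 were low in level. GDF5, a growth factor of joints, was at 1.29 ± 0.35 CPM against 0.71 ± 0.25 CPM, and pth3r, a receptor for parathyroid hormone peptides, at 0.76 ± 0.28 against 0.43 ± 0.14 CPM. The partners of SOX9, SOX5 and SOX6, had log2 fold changes of 0.05 and 0.12 with SEs of 0.06 and 0.07. The 26 tested genes of chondroitin sulfate synthesis, which make the sugar chains that aggrecan carries, had a median of 0.03 with 14 above and 12 below 0. The lowest was csgalnact1b, an enzyme that starts and extends the chain, with a log2 fold change of -0.48 and an SE of 0.21. This gene was also low in level, at 1.21 ± 0.26 CPM in aldh2.1-/- and 1.69 ± 0.19 CPM in aldh2.1+/+ larvae, and its genotypes overlapped.

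**Figure D4:**
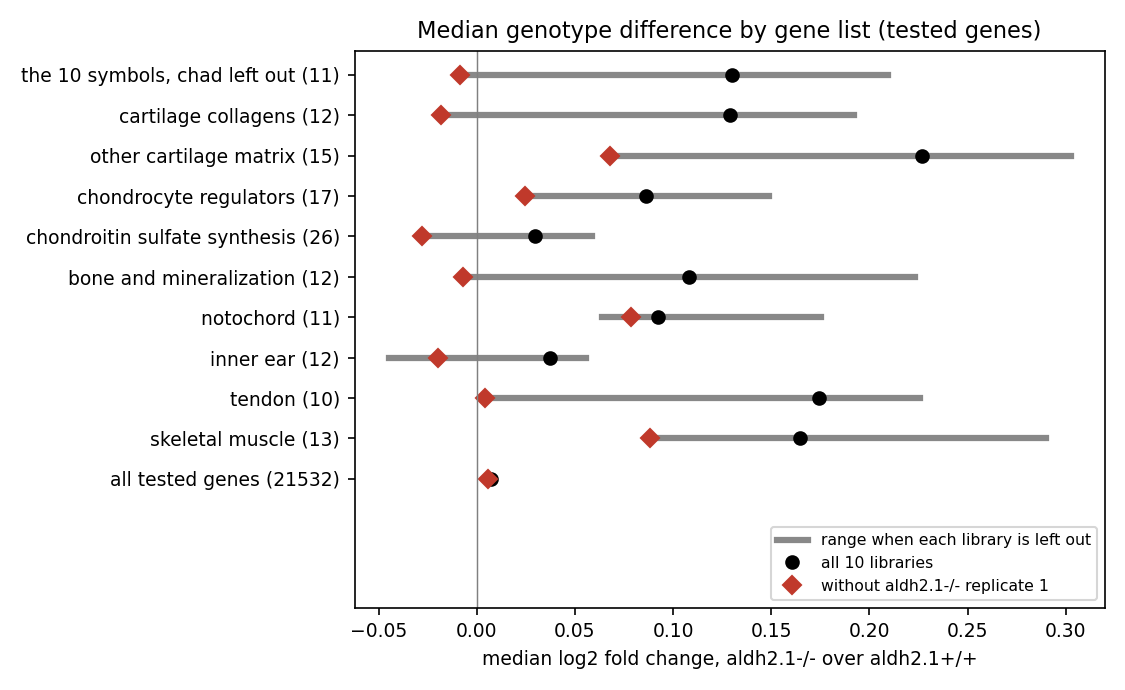
Median log2 fold change (aldh2.1-/- over aldh2.1+/+) of the tested genes of each list, for all 10 libraries (black), without aldh2.1-/- replicate 1 (red) and over leaving out each library in turn (gray line), with the number of tested genes after each list name. The cartilage collagens go from 0.13 to -0.02 and the other cartilage matrix genes from 0.23 to 0.07.

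Other tissues that express members, or that could differ in the larvae, were summed as TPM beside these results. The 14 genes of bone and mineralization summed to 761.4 to 1498.2 TPM in aldh2.1-/- and 797.8 to 994.8 TPM in aldh2.1+/+ libraries, the 13 notochord genes to 62.6 to 139.7 and 72.8 to 82.2 TPM, and the 11 tendon genes to 104.9 to 195.0 and 115.3 to 128.5 TPM. The 12 genes of the inner ear summed to 58.2 to 87.2 and 59.05 to 84.1 TPM, and the 13 skeletal muscle genes to 38728 to 72285 and 40587 to 59456 TPM. The highest sum in each of these lists was that of aldh2.1-/- replicate 1, and the summed levels of the genotypes overlapped in all 5. These sums are not scaled by TMM factors, of which that library had the largest (1.08). In CPM it was the highest library for 66.7% of the tested bone, 60% of the tendon and 38.5% of the muscle genes. It was the highest for 36.4% of the notochord and 8.33% of the inner ear genes, against 22.0% of all tested genes. Single genes of these tissues were also higher in aldh2.1-/- larvae. The log2 fold change was above 0 in 12 of 13 muscle genes (median 0.16), 11 of 12 tested bone genes (0.11) and 8 of 10 tendon genes (0.17). It was above 0 in 9 of 11 notochord genes (0.09) and 7 of 12 inner ear genes (0.04), against 52.1% of all tested genes. Without aldh2.1-/- replicate 1 it was above 0 in 8 of 13 muscle (median 0.09), 6 of 12 bone (-0.01) and 5 of 10 tendon genes (0.004). For notochord it was then 7 of 11 (0.08), and for inner ear 6 of 12 (-0.02). With all libraries the 4 cartilage lists together had a median of 0.10, the cartilage collagens 0.13 and the other cartilage matrix genes 0.23. TNNT3 ENSDARG00000030270, a troponin of fast muscle, was at 239.8 ± 38.2 CPM against 169.6 ± 14.8 CPM (SD, n = 5), a log2 fold change of 0.50 with an SE of 0.11, and DESeq2 but not edgeR called it. OTOF ENSDARG00000020581, a gene of hair cell synapses, had a log2 fold change of 0.43 with an SE of 0.12, and SCX, a tendon transcription factor, 0.23 with an SE of 0.13. These 3 genes, like chad, did not overlap between genotypes, TNNT3 only narrowly (192.8 CPM in the lowest mutant and 192.7 CPM in the highest wild-type library). They were 1 of 13 muscle, 1 of 12 inner ear and 1 of 10 tendon genes. Of the 70 tested genes of the 4 cartilage lists, 0 were apart in this way, against 0.348% of all tested genes. The more abundant identifiers TNNT3 ENSDARG00000068457 and OTOF ENSDARG00000030832 overlapped, with log2 fold changes of 0.16 (SE 0.12) and 0.05 (SE 0.09). The defining markers listed at 0 in some libraries were RUNX2 ENSDARG00000040261 (2 libraries) and bglap (6 libraries). The part of these tissues in the values of the members was not tested.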

How the data were processed

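Estimated counts and TPM (scaled for transcript length and to a fixed total) per Ensembl gene were deposited by the authors for each library. The submitters' processing notes name Trim Galore (version 0.6.4), kallisto and the genome build GRCz11, and libraries were made for the BGISEQ-500. Kallisto divides reads among transcripts that share sequence, so the deposited expected counts need not be whole and reads of near-identical genes can be split. They were rounded to whole numbers for the fits.

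Of 32520 genes, 21532 passed filterByExpr. Genotypes were compared with edgeR (version 4.0.16, R version 4.3.3; TMM factors from 0.948 to 1.08, robust glmQLFit and glmQLFTest) over the whole table, and p-values were adjusted by Benjamini-Hochberg over all tested genes. The test script was checked on simulated counts. The alternatives were DESeq2 (version 1.42.0), limma (version 3.58.1) on log2(TPM + 1) and log2(TPM + 0.1), library size scaling, other filters, a replicate block and leaving out each library. Covariation used log2 CPM with a prior count of 2. Libraries of 1 genotype differed by 7.16 to 73.2 times what counting allows (chi-square per degree of freedom), so none was another library sequenced again. Separate preparations of 1 clutch can also differ by more than counting allows, so these values cannot show that the clutches were separate. The labels number replicates but do not say that clutches had different parents, so p-values measure only the spread between these libraries, which may in part be technical.

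Members and lists were chosen with earlier results of these data known. Named genes were every matching identifier, at most the 4 genes of each list with the smallest p and the 3 with the highest TPM, the 10 genes most like chad, and the aldehyde dehydrogenases as a check of the labels. Promoter sequences were not analysed here.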

Additional observations from a re-analysis of the deposited data

Results flagged for a closer look

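The excluded identifier HAPLN1 ENSDARG00000102395 was at 0.612 CPM in aldh2.1+/+ replicate 3, far from the other 4 aldh2.1+/+ libraries, which lay between 0.144 and 0.254 CPM. The gap was 0.765 of the range of the group, above the critical value of 0.71 for 5 libraries. It was the only such library in 26 groups of member values, and chance alone gives such a flag in about 1 of 20 groups. The counts of this identifier are low, with means of 7.15 and 5.41 per library in aldh2.1-/- and aldh2.1+/+.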

How the results depend on the processing

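The 2 genes called across the table became 24 with DESeq2, 21 of them among the 21532 genes tested with edgeR. They became 4 with no filter on low counts and 1 with the replicate block. With libraries left out in turn, 2 to 48 were called (48 without aldh2.1-/- replicate 5, 4 without aldh2.1-/- replicate 1). Of the members, DESeq2 called 1 (chad) against 0. Of the genes of the 4 cartilage lists, 0 to 1 were called with a library left out, the 1 (MATN3 ENSDARG00000069245) without aldh2.1-/- replicate 5. Of 204 member values over 17 alternatives, 0 moved by more than the spread between replicates. That spread can be wider than the difference itself. The pooled SD of log2 CPM was 0.48 for acana and 0.47 for snorc, against log2 fold changes of 0.17 and 0.25. For chad it was 0.15 against 0.48. A value can therefore fall to 0 or change sign without counting as moved, so this count says little about stability. The direction was unlike the main one in 0 of 17 for chad, UCMA, epyc, cnmd and SOX9 ENSDARG00000003293. It was unlike in 1 for acana, snorc, hapln1a and HAPLN1 ENSDARG00000068516, in 4 for MATN1, 5 for MATN4 and 7 for SOX9 ENSDARG00000043923. Chad was chosen on this contrast, so its unchanged direction describes the choice. Same-numbered libraries of the genotypes did not deviate together (r from -0.13 to 0.11). The labels do not say whether the numbers pair the clutches, and these values cannot show whether such clutches were collected or processed together. With the replicate block the median log2 fold change of the members was 0.14. For the members of low level, counting alone would give a CV of 7.54% (acana) and 10.6% (snorc), below their edgeR biological CVs of 28.1% and 28.5%, so the spread between libraries limits them more than depth does.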
